A study of Rattus norvegicus with 4 samples.

Results

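The genes described here are 9 connexin genes of the rat, Gja1, Gja4, Gja5, Gjb1, Gjb2, Gjb6, Gjc1, Gjc3 and Gjd2, taken by symbol from the 30708 genes listed for each library. All 9 were listed, and 7 other connexin genes were read beside them. RNA-Seq was performed on unmodified S16 cells, an immortalized rat Schwann cell line labelled by the submitters as a myelinating Schwann cell. One population was sampled at passage 9, the parental cells of lines in which an enhancer was later deleted, and another at passage 39. Both were grown in standard medium with L-glutamine and no other treatment is named. Each population gave 2 libraries labelled as technical replicates, called here the first and second replicate by their number, 4 libraries in all, and the deleted lines and clonal expansions were not analysed here. The comparisons ask which connexins S16 cells express, and how far the levels vary between passages and between technical replicates.

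Connexins are the subunits of gap junctions. Connexin proteins assemble into a hemichannel, and hemichannels of adjoining membranes dock to form a channel that passes ions and small metabolites. Myelinating Schwann cells are known for Cx32, encoded by Gjb1, which links the layers of a single myelin sheath in the non-compact myelin, and for Cx29, encoded by Gjc3, which lies in the innermost sheath layer. Mutations of GJB1 cause the X-linked form of Charcot-Marie-Tooth disease, an inherited peripheral neuropathy. SOX10 and EGR2 are known activators of Gjb1 in Schwann cells. The other members are better known from other cells. Gja1 (Cx43) is the most widely expressed connexin, Gja4 (Cx37) and Gja5 (Cx40) are connexins of endothelium, Gjb2 (Cx26) and Gjb6 (Cx30) of the cochlea, skin and astrocytes, Gjd2 (Cx36) of neurons, and Gjc1 (Cx45) of the developing heart and smooth muscle.

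Gjb1, Gjc3 and Gja1 were the 3 members, of 5 with enough reads, whose counting intervals on summed reads did not overlap between second and first replicates. By the same rule 38.0% of all genes with enough reads were higher and 22.3% lower in the second replicates, so it does not set these members apart. Their promoters are shown to give the sequence around each start. Each spans 250 bases before to 50 bases after the start of the gene in RefSeq on the GRCr8 rat assembly, written 5′ to 3′ on the strand of the gene. The windows are chrX:70541595-70541894 on the plus strand for Gjb1, chr12:22024518-22024817 on the minus strand for Gjc3 and chr20:36302314-36302613 on the plus strand for Gja1. Capitals mark every match, on either strand, to the known SOX10 monomer ACAAA or to the variant monomer ACACA, the variant monomer ACAAT or the variant monomer ACAAG, with overlaps between matches allowed.
Gjb1: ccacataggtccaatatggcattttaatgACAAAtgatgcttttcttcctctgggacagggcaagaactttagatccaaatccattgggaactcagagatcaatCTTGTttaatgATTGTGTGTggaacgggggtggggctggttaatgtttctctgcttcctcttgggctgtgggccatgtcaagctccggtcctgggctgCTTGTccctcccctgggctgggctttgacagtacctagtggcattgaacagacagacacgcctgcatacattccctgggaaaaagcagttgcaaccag
Gjc3: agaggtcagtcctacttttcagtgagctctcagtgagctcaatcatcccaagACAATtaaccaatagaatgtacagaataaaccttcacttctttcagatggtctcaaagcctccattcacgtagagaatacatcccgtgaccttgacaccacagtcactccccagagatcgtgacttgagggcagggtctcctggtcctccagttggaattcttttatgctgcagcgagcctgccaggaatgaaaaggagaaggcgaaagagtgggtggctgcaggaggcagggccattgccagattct
Gja1: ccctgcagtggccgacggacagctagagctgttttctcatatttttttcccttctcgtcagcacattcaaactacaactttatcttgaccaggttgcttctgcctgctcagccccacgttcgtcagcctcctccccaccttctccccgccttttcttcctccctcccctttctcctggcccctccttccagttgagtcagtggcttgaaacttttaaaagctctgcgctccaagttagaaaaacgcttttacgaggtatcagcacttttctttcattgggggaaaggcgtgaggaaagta
The Gjb1 window held 6 matches, 1 on the strand of the gene and 5 on the other strand. The Gjc3 window held 1 match and the Gja1 window held 0. Of 33469 promoter windows of the same length, 83.5% held at least 1 match, with a median of 2, and 10.7% held at least as many as Gjb1. These letters are a description of the windows, and whether SOX10 binds them was not tested. Promoter windows were matched for 8 of the 9 members. Of the windows not printed, that of Gja5 held 3 matches, those of Gja4 and Gjd2 held 1 each, that of Gjb2 held 0, and the 2 windows of Gjb6 held 0 and 2.

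Levels were deposited as RPKM, reads per kilobase (1000 bases) of gene and per 1000000 reads. The whole reads behind these values were worked back for each gene, with totals of 34.2 to 41.4 M reads per library. Technical replicates of a passage lay further apart than libraries that share a replicate number. Over 11025 genes averaging 1 RPKM or more, the SD of the difference on the log2(RPKM + 1) scale was 0.339 and 0.334 between the technical replicates at passage 9 and passage 39, and 0.0796 and 0.0823 between the libraries numbered 1 and between those numbered 2. The labels give no reason for this split. They are used as given, and whether a passage or a replicate number was exchanged between libraries cannot be told from them, which would exchange the meaning of the passage and replicate comparisons. Each member is therefore given by passage and by replicate number. The Schwann cell markers Sox10, S100b, Pmp22, Ngfr and Erbb3 were at or above 1 RPKM at both passages, 5 of 5 markers, with a summed level of 1841 to 1880 RPKM made up mostly of Pmp22. S100b was past 2-fold between the replicates, at 85.7 and 31.8 RPKM in the first and second replicate of passage 9 and 86.6 and 32.8 RPKM in the matching replicates of passage 39, a difference of -1.39 on the log2(RPKM + 1) scale. Erbb3 (-0.44) and Ngfr (-0.09) were lower in the second replicates too. Sox10 (0.06) and Pmp22 (0.08) were higher in them as deposited. Their differences were -0.03 and -0.01 after median-ratio scaling, and -0.09 and -0.07 with each library brought to a common sum of RPKM. All 5 markers were thus lower in the second replicates under either rescaling, but not as deposited. Gjb1 and Gjc3 were lower in the second replicates, and the part of the markers in those differences was not tested. Of 99 ribosomal protein genes, which every cell uses, 4 were listed at 0 in all libraries, so a value of 0 is read here only as listed at 0.

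Gjc1 was the only member with a mean of at least 1 RPKM at both passages. Its level was 17.0 and 18.1 RPKM in the first and second replicate of passage 9, and 16.4 and 18.3 RPKM in the matching replicates of passage 39. The 4 values lay close together, with the second replicate slightly above the first at each passage. The mean was 17.4 ± 0.141 RPKM (SD, n = 2 populations), from 908 to 1214 reads per library, and it ranked 3966 among all genes. The gene, on chromosome 10 in RefSeq, had a recovered length of 1618 bases. The reads of the second replicates were 1.09 times those of the first per 1000000 reads (95% interval 1.02 to 1.15, counting error only). On the log2(RPKM + 1) scale this difference was 0.11, where the median difference of all genes of at least 1 RPKM was 0.10. Its direction depended on the scaling, and the difference was -0.02 with each library brought to a common sum of RPKM. Between passages the ratio of passage 39 to passage 9 was 0.996 (0.938 to 1.06). The 3 genes most like Gjc1 over the 4 libraries were Sap30, Dpagt1 and Eif4e, whose largest absolute difference from it on the log2(RPKM + 1) scale was 0.0169, 0.0184 and 0.0197.

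Gjc3 was second in level and far below Gjc1. It was listed at 1.22 and 0.690 RPKM in the first and second replicate of passage 9, and at 0.957 and 0.637 RPKM in the matching replicates of passage 39, from 129, 62, 84 and 67 reads. Both first replicates lay above both second replicates, and the share of all genes split by number in this way was not computed. The mean was 0.875 ± 0.110 RPKM (SD, n = 2 populations), on a recovered length of 2562 bases. In RefSeq on GRCr8 the pseudogene Ccdc90b-ps1 lies within the span of this gene, so the assignment of reads where they overlap is uncertain. With reads summed over passages, 213 in the first and 129 in the second replicates, the second replicates held 0.601 times the level of the first (0.479 to 0.752). The ratio was 0.567 (0.412 to 0.773) at passage 9 and 0.665 (0.475 to 0.928) at passage 39. Passage 39 held 0.803 times the level of passage 9 on summed reads (0.644 to 0.999), while the intervals of single libraries overlapped between the passages at both replicate numbers. Gjc1 was 14.0 to 28.7 times the RPKM of Gjc3 across the 4 libraries.

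Gjb1, the Schwann cell connexin of X-linked neuropathy, was low in every library. Its level was 0.159 and 0.0171 RPKM in the first and second replicate of passage 9, and 0.245 and 0.0292 RPKM in the matching replicates of passage 39. These values rest on 11, 1, 14 and 2 reads. Both first replicates lay above both second replicates, and the mean was 0.113 ± 0.0346 RPKM (SD, n = 2 populations). The summed reads, 25 against 3, gave a ratio of the second to the first replicates of 0.119 (0.0230 to 0.390). The ratio was 0.107 (0.00249 to 0.738) at passage 9 and 0.119 (0.0131 to 0.518) at passage 39, so the direction was the same at each. Between passages the ratio of passage 39 to passage 9 was 1.35 (0.601 to 3.13), which covers a difference either way. Its promoter window is the one with 6 SOX10 monomer matches, and Sox10 was listed at 171 to 183 RPKM in these cells. Whether either bears on the level of Gjb1 was not tested.

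Gja1 was also low and varied in the opposite direction. It was listed at 0.0363 and 0.0941 RPKM in the first and second replicate of passage 9, and at 0.00877 and 0.168 RPKM in the matching replicates of passage 39, from 5, 11, 1 and 23 reads. Both second replicates lay above both first replicates. The mean was 0.0768 ± 0.0164 RPKM (SD, n = 2 populations). On summed reads, 34 against 6, the second replicates held 5.63 times the level of the first (2.33 to 16.4). At passage 9 the ratio was 2.59 (0.831 to 9.52), an interval that includes 1, and at passage 39 it was 19.2 (3.11 to 790), with a single read in the lower library. The ratio of passage 39 to passage 9 was 1.52 (0.776 to 3.07). The order of Gjb1 and Gja1 thus switched with the replicate number. The RPKM of Gjb1 was 4.39 and 27.9 times that of Gja1 in the first replicates of passage 9 and passage 39, and 0.181 and 0.173 times in the second replicates.

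The endothelial connexins were at similar or lower levels. Gja4 was listed at 0.0608 and 0.0896 RPKM in the first and second replicate of passage 9, and at 0.0551 and 0.138 RPKM in the matching replicates of passage 39, from 4, 5, 3 and 9 reads. The second replicate was higher at each passage, but the ratio of the second to the first on summed reads was 1.99 with an interval of 0.750 to 5.81 that includes 1. Gja5 was listed at 0.00784 RPKM (1 read) and 0.0284 RPKM (3 reads) in the first replicates of passage 9 and passage 39. It was listed at 0 in both second replicates, where 3 reads correspond to 0.0277 RPKM at passage 9 and 0.0237 RPKM at passage 39, so no difference was detectable at this depth. Endothelial markers were low as well. Of 6 endothelial markers 0 reached 1 RPKM, Cdh5 and Kdr were at 0, and the summed level was 0.724 to 0.843 RPKM.

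Gjb2, Gjb6 and Gjd2 were listed at 0 in all 4 libraries, and a level in RPKM that 3 reads would give could not be computed because their lengths could not be recovered. Of the markers of neurons, where Gjd2 is known, Stmn2 was at 0 and Snap25, Rbfox3 and Nefh did not exceed 0.0141 RPKM, while Nefl and Syp were at or above 1 RPKM, 2 of 6 markers, with a summed level of 74.5 to 117 RPKM. Of the astrocyte markers Aqp4 was at 0 and 1 of 4 reached 1 RPKM, Gfap, with a summed level of 10.4 to 15.0 RPKM. Of the epithelial and keratinocyte markers 1 of 4 reached 1 RPKM at both passages, Krt14, Krt5 was above 0 in 1 library, and the summed level was 5.03 to 6.37 RPKM. In bulk RNA, fewer cells of a type and less RNA per cell cannot be told apart, and whether these markers bear on the connexin levels was not tested.

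**Figure D1:**
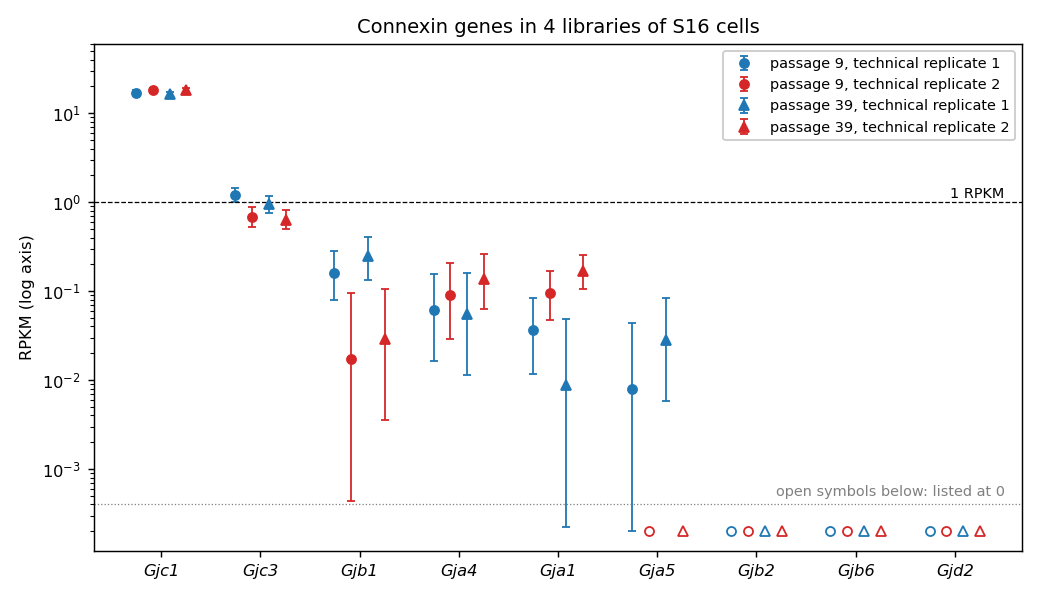
RPKM (log axis) of the 9 connexin genes in each of the 4 libraries, with exact 95% counting intervals of the recovered reads. Circles are passage 9, triangles passage 39, blue the first and red the second technical replicate. Open symbols at the foot stand for values listed at 0. Gjc1 lies at 16.4 to 18.3 RPKM, Gjc3 straddles the dashed line at 1 RPKM, and Gjb1 is blue above red where Gja1 is red above blue.

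The order of the members was Gjc1, Gjc3, Gjb1, Gja4, Gja1 and Gja5. Gjc1 lay above Gjc3, and Gjc3 above Gjb1, with separate counting intervals in 4 of 4 libraries. Gjb1 and Gja4, and Gja4 and Gja1, were not separate in any of the libraries, each being the higher in 2 of 4. Gja1 and Gja5 were separate in 2 of 4 libraries. Gjc1 held 92.0% and 95.3% of the summed RPKM of the 9 genes in the first and second replicate of passage 9, and 92.7% and 94.9% in the matching replicates of passage 39, with a mean of 93.7% ± 0.121 (SD, n = 2 populations). Gjc3 held 6.59%, 3.64%, 5.41% and 3.31% of it in the same order. The summed RPKM of the 9 genes was 18.5, 18.9, 17.7 and 19.2, and without Gjc1 it was 1.48, 0.890, 1.29 and 0.972, higher in both first replicates.

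With 1 population per passage there is no replicate check of a passage difference and no p-value was computed, so the members' differences are read against those of all genes. Only Gjc1 had the mean of 1 RPKM required for the 2-fold comparison on the log2(RPKM + 1) scale. Between passages 0 of 1 member differed by 2-fold, beside 0.00907% of 11025 genes, and between second and first replicates 0 of 1, beside 1.09%, of which 40 genes were higher and 80 lower in the second replicates (29 and 112 after median-ratio scaling, 83 and 242 with a common sum of RPKM). A gene below 1 RPKM in each group cannot reach 2-fold on this scale, so counting intervals were also compared for the 5 members with at least 20 reads over the 4 libraries. Between passages 0 of 5 had separate intervals in the same direction at both replicate numbers, beside 0.0414% of 14499 genes, and 0 of 5 on summed reads, beside 4.08%. Between second and first replicates 0 of 5 had separate intervals at both passages, beside 27.1% of genes higher and 15.9% lower in the second replicates. Separate intervals are a stricter rule than a ratio interval that excludes 1, which Gjb1 and Gjc3 had at each passage. The share of all genes that meet this looser rule was not computed.

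Gjc3 at passage 9, and Gjb1 and Gja1 at passage 39, had separate intervals between their technical replicates at that passage alone. On reads summed over passages, 1 of 5 members was higher in the second replicates, Gja1, beside 38.0% of genes, and 2 of 5 were lower, Gjb1 and Gjc3, beside 22.3%. Among genes with 20 to 50 reads, as Gja1 and Gjb1 have, 12.5% were separate in either direction on summed reads. Among genes with 20 to 400 reads the share was 23.6%, and this range takes in the 20 to 50 reads. Gjc3, with 342 reads, lies near its upper end, and the share of genes nearer that depth was not computed. The calls of these 3 members and their directions were the same when the totals were scaled by the median ratio of all genes or by the sum of RPKM. The split of all genes was not the same, since 63.1% of the separate genes were higher in the second replicates as deposited, 50.1% after median-ratio scaling and 40.2% after scaling by the sum. Under either of these scalings Gjc3 was also separate at both passages, lower in the second replicates, 1 of 5 members beside 20.8% of all genes after median-ratio scaling and 24.3% after scaling by the sum.

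**Figure D2:**
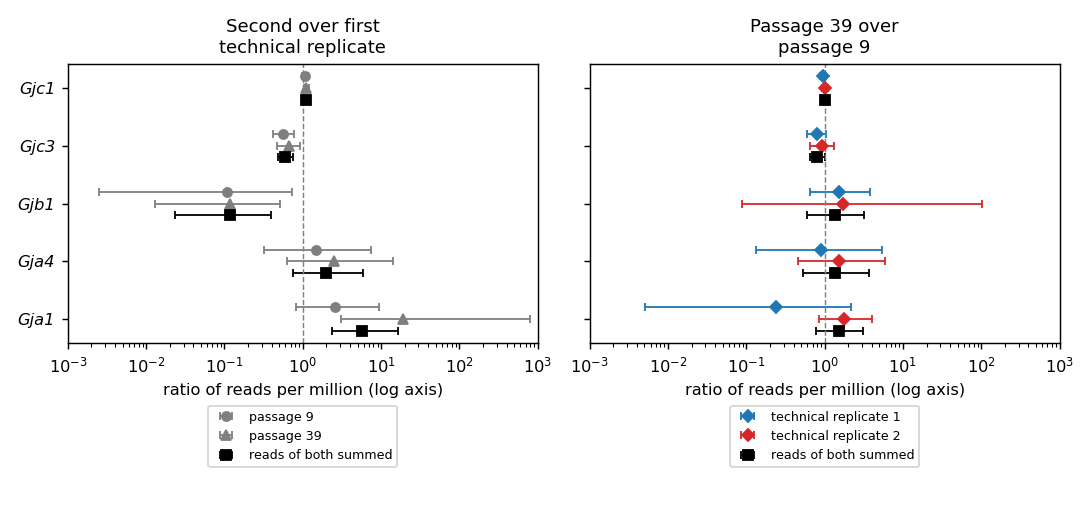
Ratios of reads per 1000000 (log axis) with exact 95% counting intervals for the 5 connexins with at least 20 reads, between technical replicates (left) and between passages (right). Black squares are summed reads, and the dashed line marks a ratio of 1. On the left, the intervals of Gjc3 and Gjb1 lie below 1 at each passage and on summed reads. Those of Gja1 and Gjc1 lie above 1 at passage 39 and on summed reads, and the direction of Gjc1 depended on the scaling. On the right, the intervals include 1 except that of the summed reads of Gjc3, whose upper end is 0.999.

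The other connexins in the list were low or listed at 0. Of these 7 genes, 6 were at 0 in all libraries, Gja3, Gja6, Gja10, Gjb5, Gjd4 and Gje1, and 0 reached 1 RPKM, with a median of 0 where the median of all genes was 0.0400 RPKM. Gjd3 was listed at 0 and 0.00706 RPKM in the first and second replicate of passage 9 and at 0.0217 and 0.0362 RPKM in the matching replicates of passage 39, from 0, 1, 3 and 6 reads. On summed reads the ratio of passage 39 to passage 9 was 9.14 with an interval of 1.27 to 400.5, from 9 reads against 1, below the 20 reads required for a call. Of the oligodendrocyte markers Olig1 was at 0 and 1 of 4 reached 1 RPKM at both passages, Mog, with a summed level of 7.90 to 10.2 RPKM.

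Pannexins form single-membrane channels and do not share sequence with connexins. Of 3 pannexin genes 1 reached 1 RPKM, Panx1, at 2.07 and 2.69 RPKM in the first and second replicate of passage 9 and 2.13 and 2.97 RPKM in the matching replicates of passage 39. It was higher in both second replicates, with a ratio of 1.36 (1.19 to 1.55) on summed reads. Panx3 was listed at 0.243, 0.717, 0.282 and 0.592 RPKM in the same order, and its intervals were separate at both passages except after scaling by the sum of RPKM. Its ratio of second to first replicates was 2.49 (1.76 to 3.57). Panx2 did not exceed 0.0167 RPKM. Only Panx1 had the mean of 1 RPKM required for the 2-fold comparison, so 0 of 1 pannexin was 2-fold apart between passages or between replicates.

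Genes whose proteins bind, anchor, modify or turn over connexins were for the most part well expressed. Of 20 such partner genes 17 were at or above 1 RPKM at both passages, with a median of 24.2 RPKM. The highest was Nedd4, a ubiquitin ligase known to act on Cx43, at 204, 166, 206 and 170 RPKM in the first and second replicate of passage 9 and those of passage 39. The lowest was Ocln, a tight junction protein, at a mean of 0.0060 RPKM. Tjp1, which encodes the scaffold ZO-1 that binds the tails of several connexins, was listed at 33.1, 31.5, 33.5 and 32.8 RPKM in the same order, and its direction was lower in the second replicates under all 3 scalings.

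Between second and first replicates, 1 partner gene was 2-fold higher and 0 were 2-fold lower, and between passages 0 differed by 2-fold. The gene was Cav1, which encodes the main protein of caveolae. It was listed at 9.53 and 20.5 RPKM in the first and second replicate of passage 9 and at 9.52 and 20.7 RPKM in the matching replicates of passage 39, and both second replicates lay above both first replicates. The difference on the log2(RPKM + 1) scale was 1.04, and it was 0.95 after median-ratio scaling and 0.94 after scaling by the sum, below 2-fold in each. Of 18 partner genes with enough reads, 5 were higher and 7 lower in the second replicates at both passages as deposited, 5 and 8 after median-ratio scaling, and 4 and 10 after scaling by the sum. The shares of all genes that were higher and lower by the same rule were 27.1% and 15.9% as deposited, 18.7% and 20.8% after median-ratio scaling, and 14.0% and 24.3% after scaling by the sum, so the split of all genes moved the same way. Between passages 0 of 18 were separate at both replicate numbers.

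**Figure D3:**
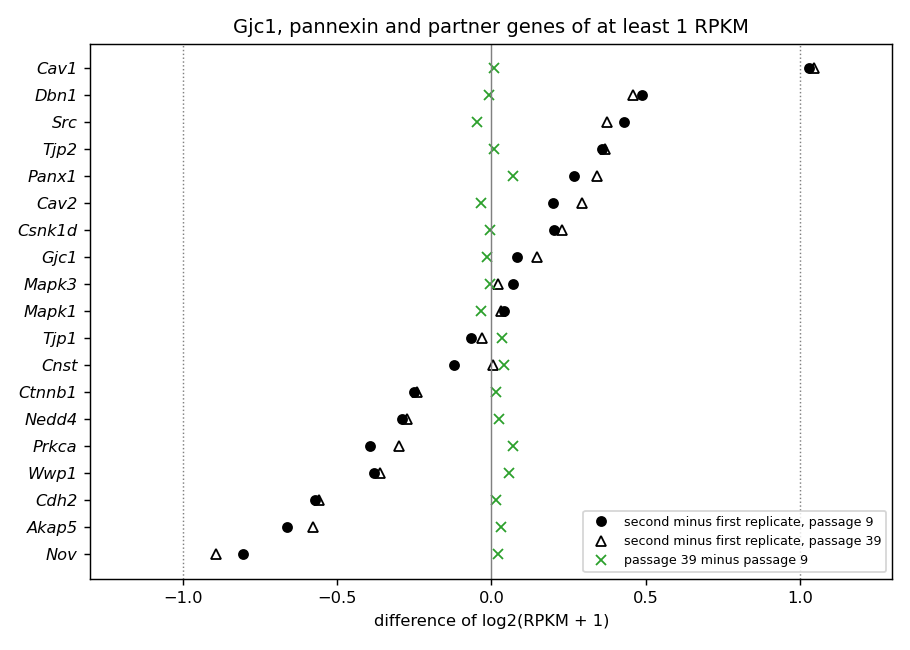
Differences of log2(RPKM + 1) for Gjc1, Panx1 and the 17 partner genes of at least 1 RPKM, between second and first technical replicates at passage 9 (filled circles) and passage 39 (open triangles), and between passages (green crosses). The dotted lines mark 2-fold. Circle and triangle of a gene lie near each other from Nov, the lowest, to Cav1, the only gene past a dotted line as deposited and short of it after either rescaling, while the crosses lie near 0.

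Genes of the myelin sheath were far above Gjb1 in level. Of 6 myelin genes 6 were at or above 1 RPKM at both passages, with a median of 54.8 RPKM. The highest of these was Pmp22, which encodes a small membrane protein of compact myelin, at 1225 and 1293 RPKM in the first and second replicate of passage 9 and 1216 and 1287 RPKM in the matching replicates of passage 39, and the lowest was Prx (periaxin), at 18.7, 13.3, 19.5 and 13.0 RPKM in the same order. In both second replicates 5 of 6 were lower with separate intervals, beside 15.9% of all genes, while Pmp22 turned with the scaling, its log2 difference being 0.08 as deposited, -0.01 after median-ratio scaling and -0.07 after scaling by the sum. Mal was more than 2-fold lower in the second replicates, with a log2 difference of -1.22, the only 1 of 6, and 0 of 6 were 2-fold apart between passages. Gjb1 and Gjc3 were lower in the second replicates as well, but whether the connexins move with the myelin genes was not tested.

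Of 8 factors that act on myelin gene promoters 6 were at or above 1 RPKM, with a median of 10.8 RPKM. Sox10 was the highest, at 174, 183, 171 and 176 RPKM in the first and second replicate of passage 9 and those of passage 39, and Pou3f1 was the lowest, at a mean of 0.148 RPKM. Egr2 was listed at 5.90, 10.5, 6.21 and 11.0 RPKM in the same order, higher in both second replicates, where Gjb1 was lower. At both passages 4 of 8 factors were higher and 1 lower in the second replicates as deposited, 3 and 1 after median-ratio scaling, and 3 and 2 after scaling by the sum, beside the shares of all genes of 27.1% and 15.9%, 18.7% and 20.8%, and 14.0% and 24.3%. Of the 6 factors at or above 1 RPKM, 0 were 2-fold apart in either comparison.

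**Figure D4:**
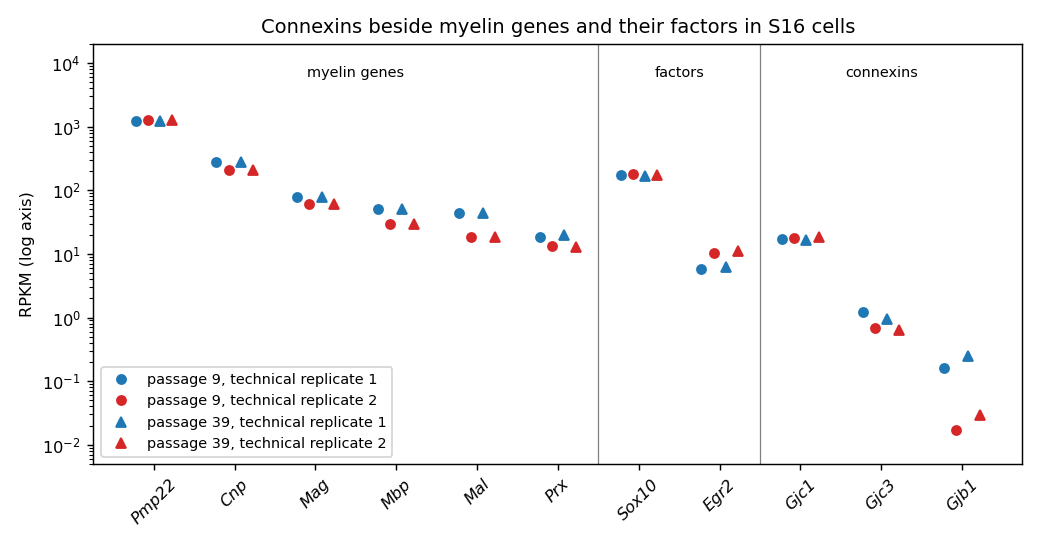
RPKM (log axis) of the 6 myelin genes, the factors Sox10 and Egr2, and the 3 highest connexins in each library. Symbols and colours stand for passage and technical replicate number. Gjc1 lies near Prx and above Egr2, while Gjb1 lies below 1 RPKM in all 4 libraries and below every myelin gene shown.

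Markers of other cells differed by replicate number, in both directions. The epithelial marker Cdh1 was listed at 1.15 and 0.175 RPKM in the first and second replicate of passage 9. It was listed at 1.19 and 0.105 RPKM in the matching replicates of passage 39. On the log2(RPKM + 1) scale its difference was -0.93, beside -0.62 for Nefl, -0.46 for Gfap, -0.27 for Mog and 0.58 for Syp. Each of these had separate intervals at both passages under all 3 scalings. Of the mural markers, cells in which Gjc1 is known, 2 of 5 reached 1 RPKM at both passages, Acta2 and Pdgfrb, and Rgs5 was at 0. Acta2 was listed at 444 and 986 RPKM in the first and second replicate of passage 9 and 445 and 974 RPKM in the matching replicates of passage 39. On the log2(RPKM + 1) scale this was a difference of 1.14, or 1.05 after median-ratio scaling and 0.99 after scaling by the sum. Pdgfrb was slightly lower in the second replicates (-0.15), and the summed level of the mural markers, 469 to 1008 RPKM, is nearly all Acta2. Of the fibroblast markers, cells in which Gja1 is known, 2 of 6 reached 1 RPKM, Col1a1 and Pdgfra. Thy1 was at 0, Dcn did not exceed 0.0132 RPKM and Col1a2 was at a mean of 0.339 RPKM. The summed level of the fibroblast markers, 3349 to 3883 RPKM, is nearly all Col1a1 and was higher in both second replicates as deposited. The difference of Col1a1 was 0.19 on the log2(RPKM + 1) scale, 0.10 after median-ratio scaling and 0.04 after scaling by the sum. The part of these markers in the level of Gja1 was not tested.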

How the data were processed

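RNA was poly(A)-selected, made into TruSeq libraries and sequenced as single-end reads of 50 bases. Per the study's methods and the submitters' processing notes, the authors checked reads with FastQC, aligned them to the rat genome (rn5) with STAR, kept uniquely mapped reads and counted them with HTSeq without regard to strand. Tool versions are not given in the sources used here. The authors deposited RPKM values for 30708 symbols, and the gene lengths and the read totals per library used for them are not given in the sources used here. RefSeq gene models are named in the files and Ensembl ones in the methods. The authors' own test, DESeq2 on counts of mutant and unmodified cells, was not repeated, since counts were not used here. Without strand, reads of overlapping genes cannot be told apart.

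Levels were averaged per passage. Differences were computed on log2(RPKM + 1), which understates changes of low genes, for genes averaging 1 RPKM or more. Library totals and whole reads were recovered from ratios of RPKM values, with a ratio called whole within 1e-09, for 18113 of the 18114 genes above 0 in at least 2 libraries. Recovered reads are the smallest whole numbers that fit the ratios and a whole length, so a factor shared by all libraries could be missed. They sum to 77.5% to 79.3% of the recovered totals. The study's methods say that technical replicates were pooled and run over 2 lanes, and give a yield per cell line several times below these totals, a difference that was not resolved. The ratios rest on the relative totals and not on the absolute totals. The recovered reads depend on the absolute total too, since it sets which length is whole. The intervals and the minimum of 20 reads rest on these reads, and how a lower total would change them was not tested. Intervals are exact Clopper-Pearson 95% intervals, and ratio intervals come from the exact binomial distribution of the reads of a pair. Both cover counting error only, and since nothing says that the technical replicates came from separate cultures, differences between them may be technical. The calls required 20 reads. The steps were tested on simulated data. Python 3.11.15, numpy 2.4.6, pandas 2.3.3, scipy 1.17.1 and matplotlib 3.10.9 were used.

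The members and gene lists were chosen with earlier results of these data known. The genes named are all 9 members, the highest, the lowest and those past 2-fold of each list, and the 3 genes nearest to the highest member. Others named from the lists (other connexins, pannexins, Tjp1, Nov, Egr2 and the rest of the cell type markers) were picked after their values were seen. Some genes of the lists are not reported here and were left out of the lists' counts and sums. The alternatives were a common sum of RPKM, median-ratio scaling, other pseudocounts, minimums and interval levels, and leaving out each library.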

Additional observations from a re-analysis of the deposited data

How the results depend on the processing

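The count of connexins detected at both passages was 1, and 2 with each library at a common sum of 1000000 RPKM or with a minimum of 0.1 RPKM, where Gjc3 was added. The share of Gjc1 was 93.7%, and 92.9% to 94.6% when any of the 4 libraries was left out. The count of members 2-fold apart between second and first replicates was 0, and 1 (Gjb1) with a pseudocount of 0.1 RPKM and no filter. Gjb1 rests there on 25 against 3 reads, and the share of all genes at this setting was not computed. The count with separate intervals between second and first replicates was 0, and 3 on summed reads, beside 38.0% of all genes higher and 22.3% lower. It was 1 under either scaling of the totals, beside the shares given above. The last 4 of these settings were added after the data were seen. With technical replicate number as a replicate block, 0 members were 2-fold apart between passages, the same as without it. The 2 pairs by number are too few to show that the numbers pair the libraries. Of 54 second-minus-first differences of members recomputed, 53 kept their sign, the exception being Gjc1 at -0.02. Only the rescalings could change a sign here. In each member above 0, both libraries of a replicate number lay on the same side of the others. The share of all genes split in this way was not computed, so the split is not read as a trait of connexins. Leaving out libraries or changing the pseudocount could therefore not turn the sign, and the count is no measure of support. Of 48 passage differences 38 kept their sign, and the 10 exceptions all came from leaving out a library. That of Gjc3, -0.12 on the log2(RPKM + 1) scale, became 0.09 with the first passage 9 library left out and 0.0031 with the second passage 39 library left out. The cause was not tested. Precision is limited by read counts, since all members but Gjc1 and Gjc3 had under 50 reads over the 4 libraries.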
